A study of Mus musculus with 10 samples.

Results

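T cell receptor (TCR) complex transcripts were followed through RNA-seq libraries of germinal center (GC) B cells, in which such transcripts, apart from Lck, are low. The 10 genes, of 22380 quantified, encode the CD3 subunits (Cd3e, Cd3d, Cd3g, Cd247), the constant regions of the receptor chains (Trac, Trbc1, Trbc2) and proximal signaling proteins (Lat, Zap70, Lck). They were selected on measured values, as genes higher in ZBTB38 WT and lower in ZBTB38 HET than in ZBTB38 KO libraries, so their order across genotypes is a description and carries no test. The libraries came from mice given NP-OVA with alhydrogel, and NP-binding GC B cells were taken 2 weeks later by a gate that included GL7+, IgD- and NP+ after enrichment on GL7. ZBTB38 WT mice (n = 2) were Zbtb38 fl/fl without Cre, ZBTB38 HET mice (n = 2) were Zbtb38fl/+ x Vav-Cre and ZBTB38 KO mice (n = 6) were Zbtb38fl/fl x Vav-Cre, all labelled C57Bl6/N, with 1 library per mouse. Ages were not given in the sources used here. Vav-Cre acts primarily in hematopoietic cells, which include T cells as well as B cells, and the floxed allele was carried by every group. In ZBTB38 WT against KO, the presence of Cre and the loss of Zbtb38 cannot be told apart, whereas HET and KO both carried Cre.

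The αβ TCR binds peptide on MHC molecules and signals through the CD3 chains, which pair as εδ, εγ and ζζ (Cd247 encodes ζ). The kinase Lck phosphorylates tyrosine motifs (ITAMs) on these chains, Zap70 binds the phosphorylated motifs, and Zap70 phosphorylates the adaptor Lat. B cells use a parallel module, in which the immunoglobulin receptor signals through ITAMs of Cd79a and Cd79b, and they meet T follicular helper cells in the germinal center. In bulk RNA, fewer T cells and less RNA per T cell cannot be told apart.

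The ITAM-coding stretches of the CD3 chains and, for comparison, of the B cell receptor (BCR) chains are printed because they are what the signaling chains of both receptors have in common. The sequences are from the Gencode vM21 transcripts, 5′ to 3′, and capitals mark the codons of the 2 tyrosines of each motif. Cd3e, Cd3d and Cd3g each hold 1 such motif and Cd247 holds 3.
Cd3e: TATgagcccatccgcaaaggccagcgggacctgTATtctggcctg
Cd3d: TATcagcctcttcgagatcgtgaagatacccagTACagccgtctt
Cd3g: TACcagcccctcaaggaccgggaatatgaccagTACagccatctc
Cd247 motif 1: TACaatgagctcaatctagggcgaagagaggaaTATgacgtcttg
Cd247 motif 2: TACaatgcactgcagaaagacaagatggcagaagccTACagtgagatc
Cd247 motif 3: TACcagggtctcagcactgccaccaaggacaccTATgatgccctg
Cd79a: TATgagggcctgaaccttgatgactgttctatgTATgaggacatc
Cd79b: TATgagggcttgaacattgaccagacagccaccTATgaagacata

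Among the quantified transcripts, no stretch of 31 bases of Cd3e, Cd3g, Cd247, Trac, Lat, Zap70 or Lck occurred in another gene. Trbc1 and Trbc2 differed, as near-identical copies of the β chain constant region: 321 such stretches were shared, 44.8% of those of Trbc1 and 48.5% of those of Trbc2. Their coding sequences matched at 95.6% of 521 aligned bases, with 23 mismatches. The 60 bases with the most mismatches, 11 in number (coding bases 459 to 518), are printed because they show the most closely spaced of these differences. Capitals mark the mismatched bases.
Trbc1: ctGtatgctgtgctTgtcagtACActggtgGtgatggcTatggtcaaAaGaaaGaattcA
Trbc2: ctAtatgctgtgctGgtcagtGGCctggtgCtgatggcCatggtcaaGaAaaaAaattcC

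The split of reads between Trbc1 and Trbc2 is therefore uncertain over the shared stretches. In Cd3d, 29 stretches (1.74%) were shared with 314 other genes. In the Gencode vM21 annotation of GRCm38, Cd3g (chr9:44969572-44980431, minus strand), Cd3d (chr9:44981786-44987339, plus strand) and Cd3e (chr9:44998740-45009627, minus strand) lie within 40056 bases, and the starts of Cd3g and Cd3d are 1355 bases apart. Trbc1 (chr6:41538218-41539881) and Trbc2 (chr6:41546730-41548352) lie 6849 bases apart on the plus strand, and Trac is at chr14:54220521-54224206 on the same strand. Cd247 (chr1:165788681-165877277) and Zap70 (chr1:36761798-36782818) are on the plus strand, and Lat (chr7:126363824-126369570) and Lck (chr4:129548344-129573641) on the minus strand.

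Each library held between 26612431 and 41059082 estimated counts. Zbtb38 itself was at 162 and 152 CPM (TMM-normalized counts scaled to library size) in WT, 117 and 106 in HET and 18.6 to 50.3 in KO, in the order of the labels. These are sums over the whole gene, whereas only its terminal exon is floxed. Within that exon, the paper reports a complete loss of transcripts in KO. B cell and GC B cell markers were abundant in every library, with Cd79a at 1713 CPM or more and S1pr2 at 296 or more. KO replicate 6 stood apart, at 79.3 on the first principal component (31.6% of the variance) against -23.4 to 0.73 for the other libraries, and results that rest on it are given with and without it. Nothing in the labels gives a batch. Of the members, 9 had means in the order WT, KO, HET, which 21.3% of the 14354 genes tested also had. The exception was Lck.

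Cd3e, the ε chain shared by both CD3 pairs with a TCR chain, was at 18.0 and 13.7 CPM in WT, 1.59 and 4.20 in HET, and 3.71 to 7.40 (median 7.02) in KO. Both WT libraries were above all KO libraries, while HET replicate 2 overlapped the lowest KO library. The means were 15.8 ± 3.05 (SD, n = 2), 2.90 ± 1.84 (SD, n = 2) and 6.33 ± 1.48 CPM (SD, n = 6), a log2 fold change of 1.32 (standard error 0.33) for WT over KO and of -1.13 (0.44) for HET over KO. Cd3g, the γ chain, was at 15.9 and 13.3 CPM in WT, 1.56 and 3.11 in HET, and 2.90 to 9.32 (median 5.48) in KO. As for Cd3e, WT was above all KO libraries and HET replicate 2 lay above the lowest KO library. Cd3g had a log2 fold change of 1.35 (standard error 0.45) for WT and -1.30 (0.54) for HET.

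Cd3d, the δ chain, was at 13.4 and 10.5 CPM in WT, 4.30 and 4.89 in HET, and 4.18 to 19.0 (median 8.96) in KO. Here KO replicate 6 was the highest of all 10 libraries, so WT and KO overlapped, and without it WT was above every remaining KO library. Both HET libraries lay just above KO replicate 5. The WT to KO ratio of means was 1.25 with KO replicate 6 and 1.55 without it. Cd247, whose ζ chain carries the most ITAMs, was at 6.65 and 7.60 CPM in WT, 0.893 and 2.14 in HET, and 0.0301 to 5.76 (median 2.96) in KO. The lowest value, in KO replicate 6, was 1 estimated count, in the library where Cd3d was highest. WT was above all KO libraries, and HET and KO overlapped. The log2 fold change of Cd247 was 1.29 with a standard error of 0.96 for WT and -0.94 with a standard error of 1.06 for HET. Without KO replicate 6 they were 1.03 (standard error 0.45) and -1.21 (0.55).

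The receptor chains were closest to the rule's order. Trac, the α constant region, was at 24.9 and 20.7 CPM in WT, 2.74 and 4.78 in HET, and 5.09 to 15.5 (median 11.6) in KO. No library of one genotype overlapped another, although KO replicates 3 and 5, at 5.09 and 5.39, lay just above HET. The means were 22.8 ± 2.98 (SD, n = 2) in WT, 3.76 ± 1.44 (SD, n = 2) in HET and 10.3 ± 4.22 CPM (SD, n = 6) in KO, so that WT was 2.21-fold above KO and KO 2.75-fold above HET.

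Trbc1 was at 18.4 and 18.6 CPM in WT, 2.01 and 2.64 in HET, and 3.91 to 13.8 (median 8.94) in KO, again without overlap. Trbc2 was at 23.8 and 30.7 CPM in WT, 3.28 and 4.20 in HET, and 7.93 to 24.2 (median 14.2) in KO. For Trbc2, KO replicate 6 lay above WT replicate 1, and HET stayed below all KO libraries. Log2 fold changes for WT and HET were 1.16 (standard error 0.43) and -1.83 (0.50) for Trbc1. For Trbc2 they were 0.88 (standard error 0.38) and -1.98 (0.44). In TPM, a scale per transcript length, the ratio of Trbc2 to Trbc1 stayed between 1.35 and 2.22 over the libraries.

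Lat, the membrane adaptor that gathers signaling proteins after receptor engagement, was at 14.0 and 16.5 CPM in WT, 2.45 and 3.08 in HET, and 4.48 to 18.1 (median 8.31) in KO. HET lay below all KO libraries, and WT overlapped KO through KO replicate 6 alone. Its log2 fold change was 0.67 (standard error 0.50) for WT and -1.79 (0.56) for HET. Zap70, the kinase recruited to ITAMs, was at 6.17 and 4.29 CPM in WT, 0.0319 and 1.05 in HET, and 0.978 to 6.94 (median 2.89) in KO. In HET replicate 1 it rested on 1 estimated count. WT and KO overlapped with or without KO replicate 6, and the log2 fold changes of 0.55 and -2.73 had standard errors of 0.70 and 1.13.

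**Figure D1:**
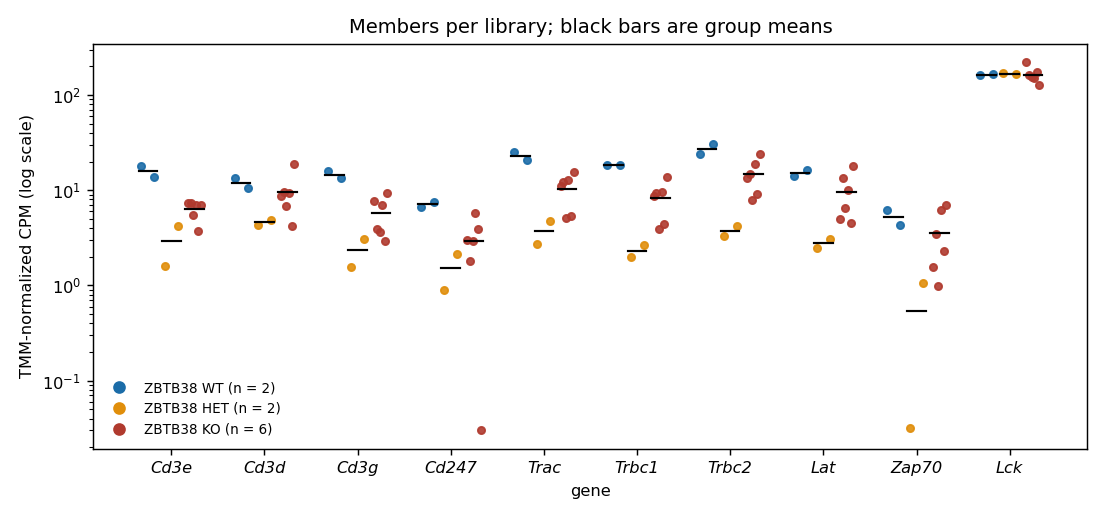
TMM-normalized CPM (log axis) of the 10 members in each library, grouped by gene and coloured by genotype, with black bars at the group means. Apart from Lck, WT points lie highest and HET points lowest on average, and the lone low KO point of Cd247 is KO replicate 6 at 0.0301 CPM.

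Both WT libraries were above all KO libraries for 5 of the 10 members (Cd3e, Cd3g, Cd247, Trac, Trbc1), beside 3.91% of all genes tested, and for 8 without KO replicate 6, beside 5.39% of all genes. Both HET libraries were below all KO libraries for 4 (Trac, Trbc1, Trbc2, Lat), beside 5.77% of all genes. Trac and Trbc1 did both, as 0.118% of all genes did. These counts restate the values that chose the genes. Over the 9 members without Lck, the ratio of the WT to the KO mean was between 1.25 and 2.55 (median 2.21) and that of KO to HET between 1.92 and 6.61 (median 2.75).

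The spread within KO was wide. Per library, the median of the 9 members as a percent of their WT mean was 12% and 20.9% in HET, and in KO replicates 1 to 6 it was 46.8%, 53.0%, 29.1%, 66.6%, 29.4% and 74.8%. Among the KO libraries, replicates 3 and 5 were thus the closest to HET, and replicate 6 was the closest to WT. KO replicate 6 held the highest KO value for 7 of the 10 members and the lowest for 2 (Cd247 and Lck), while KO replicates 3 and 5 each held the lowest for 4. The SD of log2(CPM + 1) over the KO libraries was between 0.33 (Cd3e) and 0.94 (Cd247) for the 9 members and 0.26 for Lck, beside a median of 0.33 over all genes. Without KO replicate 6 it was between 0.36 (Cd3e) and 0.72 (Zap70) for the 9 members, 0.47 for Cd247 and 0.22 for Lck, beside 0.29 over all genes.

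**Figure D2:**
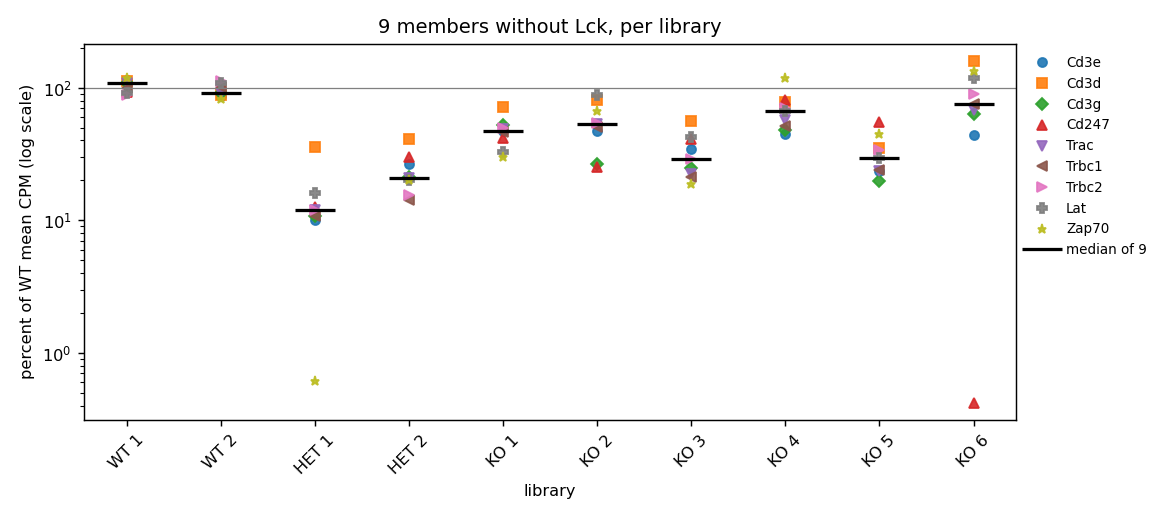
Each of the 9 members other than Lck as a percent of its own WT mean (log axis) in each library, with the median of the 9 as a black bar. The medians are 12% and 20.9% in the HET libraries and run from 29.1% to 74.8% in the KO libraries.

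Lck, the kinase that starts TCR signaling and is also found in subsets of B cells, did not have the order of the rule. It was at 160 and 168 CPM in WT, 171 and 165 in HET, and 126 to 220 (median 157) in KO. All groups overlapped, and the means were 164 ± 5.09 (SD, n = 2), 168 ± 4.62 (SD, n = 2) and 164 ± 31.6 CPM (SD, n = 6). The log2 fold change was 0.00 (standard error 0.19) for WT and 0.03 (0.18) for HET, and its sign changed with the library left out. Per transcript length Lck was at 77.0 to 124 TPM, against 9.71 to 94.1 TPM for Trbc2, the next highest member, and 1.74 to 19.8 TPM for Cd3e. The TPM ratio of Lck to Cd3e was 5.85 and 8.0 in WT, 69.8 and 25.6 in HET, and 11.9 to 30.5 in KO.

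Lck is transcribed from a distal and a proximal promoter, the proximal one known from thymocytes and the distal one from mature T cells. Transcripts from the distal start held 79.5% to 92.1% of Lck counts. The distal share was 90.4% and 80.6% in WT, 85.7% and 92.1% in HET, and 79.5% to 89.9% in KO, so the genotypes overlapped. Salmon divides reads over shared exons by estimation, so these shares are approximate. The 300 bases around both starts (RefSeq, GRCm38.p6, minus strand) are printed because they separate the 2 kinds of Lck transcript. Capitals mark the letters CAGGTG (an E-box), its reverse complement, or TGTGGT (a RUNX motif).
Lck distal, chr4:129573592-129573891: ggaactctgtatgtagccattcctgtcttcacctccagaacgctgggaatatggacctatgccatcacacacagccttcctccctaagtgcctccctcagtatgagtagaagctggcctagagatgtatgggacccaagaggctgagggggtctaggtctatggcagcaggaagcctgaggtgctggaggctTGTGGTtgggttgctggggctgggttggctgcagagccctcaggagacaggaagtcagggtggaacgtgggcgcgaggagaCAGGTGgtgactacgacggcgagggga
Lck proximal, chr4:129558323-129558622: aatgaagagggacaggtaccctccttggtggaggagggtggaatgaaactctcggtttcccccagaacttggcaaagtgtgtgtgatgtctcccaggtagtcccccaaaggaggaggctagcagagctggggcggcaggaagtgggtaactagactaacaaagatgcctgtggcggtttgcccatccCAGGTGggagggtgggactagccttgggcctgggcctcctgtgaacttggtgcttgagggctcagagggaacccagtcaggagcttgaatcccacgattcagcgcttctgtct

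RefSeq promoter windows, 250 bases before to 50 after the start, were matched for 7 members with 10 windows. Zap70 and Lck had more than 1 window each, and none was matched for Trac, Trbc1 and Trbc2. On either strand CAGGTG occurred in 8 of the 10 windows, against 20.2% of all 32851 windows. It was absent from the Lat window and from 1 Zap70 window. TGTGGT occurred in 3 (16.8% of all windows), the GATA motif AGATAA in 1 (11.2%) and the ETS motif CCGGAA in 1 (14.9%). The divergent Cd3g and Cd3d windows and that of Cd3e are printed as those of the linked CD3 genes, with the matches to CAGGTG and AGATAA in capitals.
Cd3g, chr9:44980382-44980681, minus strand: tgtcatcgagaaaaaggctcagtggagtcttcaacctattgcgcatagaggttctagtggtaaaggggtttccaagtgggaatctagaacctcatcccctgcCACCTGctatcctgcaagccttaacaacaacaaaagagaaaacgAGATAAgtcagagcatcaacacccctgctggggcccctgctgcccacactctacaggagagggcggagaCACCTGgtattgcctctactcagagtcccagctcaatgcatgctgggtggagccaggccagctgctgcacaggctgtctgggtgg
Cd3d, chr9:44981536-44981835, plus strand: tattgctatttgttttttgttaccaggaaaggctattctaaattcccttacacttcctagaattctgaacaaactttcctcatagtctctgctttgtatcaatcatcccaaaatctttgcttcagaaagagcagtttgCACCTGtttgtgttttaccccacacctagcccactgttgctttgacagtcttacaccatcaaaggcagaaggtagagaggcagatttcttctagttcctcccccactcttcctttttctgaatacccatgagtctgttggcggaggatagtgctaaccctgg
Cd3e, chr9:45009562-45009861, minus strand: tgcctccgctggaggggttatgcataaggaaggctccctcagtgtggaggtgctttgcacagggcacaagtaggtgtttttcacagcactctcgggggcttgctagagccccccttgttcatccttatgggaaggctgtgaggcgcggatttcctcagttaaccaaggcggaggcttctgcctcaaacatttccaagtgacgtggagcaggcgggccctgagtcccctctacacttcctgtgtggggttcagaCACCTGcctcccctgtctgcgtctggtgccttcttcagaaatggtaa

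**Figure D3:**
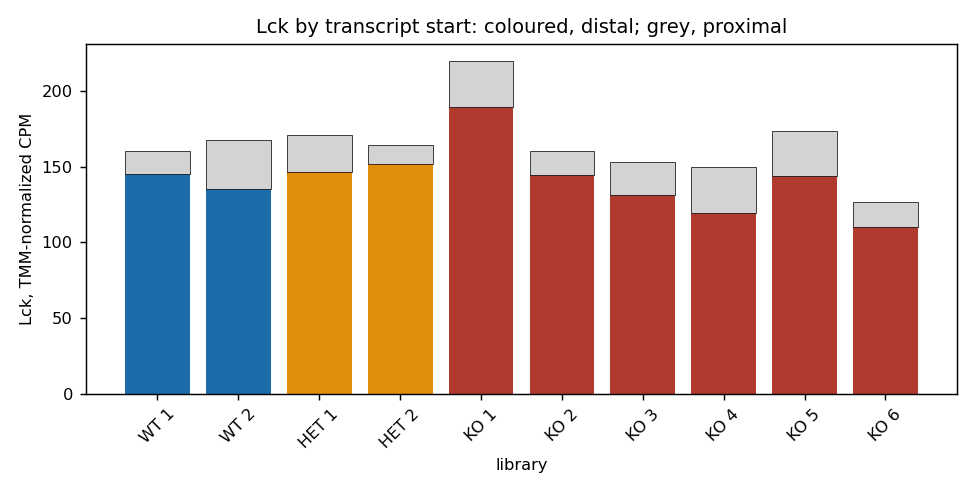
TMM-normalized CPM of Lck per library, divided by transcript start, with the distal start coloured by genotype and the proximal start in grey. The bars reach 126 to 220 CPM and the distal share is 79.5% to 92.1%.

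Levels between members were compared in TPM. Over all 10 libraries the mean ran from 113 TPM for Lck and 42.7 for Trbc2 through Trbc1 (25.2), Trac (22.2), Lat (12.5), Cd3g (11.4), Cd3d (9.87) and Cd3e (8.06) to Cd247 (3.33) and Zap70 (2.16). Lck was above Trbc2, Trbc2 above Trbc1, Trac above Lat and Cd3e above Cd247 in 10 of 10 libraries. The order of Trbc1 and Trac (7 of 10), of Lat and Cd3g (6 of 10), of Cd3g and Cd3d (6 of 10), of Cd3d and Cd3e (7 of 10) and of Cd247 and Zap70 (8 of 10) varied between libraries. Against the BCR chain Cd79b, Cd3e was at 8.23 and 5.69 TPM per 1000 TPM in WT, 0.808 and 2.08 in HET and 1.92 to 3.84 in KO.

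Variable genes of the TCR are joined to the constant regions in rearranged receptor genes of T cells. The rule did not use these variable genes, but their levels are not independent of Trac, Trbc1 and Trbc2, which it used. Of 127 such genes, those with at least 1 estimated count numbered 76 and 71 in WT, 19 and 27 in HET, and 33, 50, 33, 61, 41 and 28 in KO replicates 1 to 6. Their summed CPM was 22.1 and 18.7 in WT, 3.76 and 4.38 in HET, and 4.99 to 17.9 in KO. KO replicate 6 combined the highest KO sum with the fewest KO genes, at 21.3 counts per detected gene against 3.63 to 12.1 in the other libraries. Depth differed among the libraries, and its part in the number of genes detected was not tested.

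**Figure D4:**
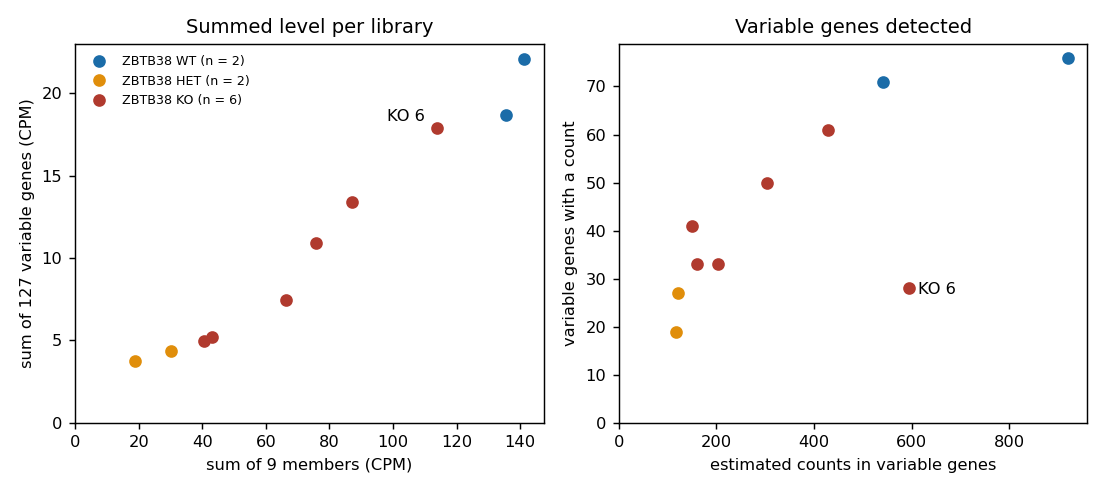
Left, summed CPM of the 127 TCR variable genes against summed CPM of the 9 members without Lck, per library. Right, number of variable genes with a count against their summed estimated counts, where KO 6 lies apart with 28 genes from 595 counts.

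Genes whose profile over the 10 libraries was most like the mean of the members were ranked by Pearson's r of log2(CPM + 1), as a description over libraries that share the genotype order. The closest non-members were Cd27 (r = 0.95), a costimulatory receptor of T cells and activated B cells, Izumo1r (0.94), the folate receptor FR4 of regulatory and helper T cells, Tcf7 (0.93), a T lineage transcription factor, Cd6 (0.93), a T cell surface receptor, and Mppe1 (0.92). Cd27 was at 7.68 and 6.88 CPM in WT, 1.21 and 2.17 in HET and 1.70 to 4.57 in KO. Of the members, Cd247 (0.45) and Lck (-0.21) were the least like the mean, to which they themselves contribute.

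The question of whether other T cell genes differ between genotypes was tested on 32 non-members, in lists of T lineage signaling (14 genes) and T cell surface and lineage (18 genes). The 32 were compared in the same libraries and between the same genotypes that chose the members. The lists were also drawn up with earlier results of these data known, so the counts below are not independent of that choice. Between WT and KO, 26 of the 32 had a positive log2 fold change. An unadjusted p under 0.05 from edgeR's quasi-likelihood test was reached by 6 in the direction of WT and 0 in the other, beside 1.19% and 1.0% of the 14203 genes tested. None passed a Benjamini-Hochberg adjusted p of 0.1 (each at 0.999), as 0.00704% of all genes did, and none passed with DESeq2 or limma. They included the adaptor Skap1 (log2 fold change 1.11, standard error 0.40), Rasgrp1, a Ras activator (0.40, 0.17), Cd6 (1.45, 0.58), the costimulator Icos (1.44, 0.57) and Tcf7 (1.42, 0.54).

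Tcf7 was at 34.0 and 47.5 CPM in WT, 4.56 and 3.29 in HET, and 4.73 to 33.1 (median 12.8) in KO. The groups did not overlap, as for 0.118% of all genes, but the gaps were narrow. KO replicate 6 (33.1) lay just below WT replicate 1 (34.0), and KO replicate 3 (4.73) just above HET replicate 1 (4.56). Icos was at 5.81 and 9.68 CPM in WT, 2.01 and 1.52 in HET, and 1.27 to 4.96 in KO, where HET and KO overlapped. Leaving out WT replicate 1, WT replicate 2 or KO replicate 5 reduced the 6 genes to 3, 1 and 2. The median log2 fold change was 0.54 for T lineage signaling and 0.88 for surface and lineage genes, beside -0.01 over all genes.

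Between HET and KO, 29 of the 32 genes had a negative log2 fold change. An unadjusted p under 0.05 was reached by 10 lower in HET and 1 higher, beside 4.76% and 5.46% of the 14354 genes tested. None passed the adjusted threshold with edgeR's quasi-likelihood test (0.00697% of all genes did) or with limma. DESeq2 called 4 of the 32 (Cd2, Tcf7, Ubash3a lower and Rasgrp1 higher), and 458 of all genes against 1 with edgeR. The 10 lower genes were Fyb, Grap2, Ubash3a, Cd2, Cd5, Cd6, Cd7, Tcf7, Gata3 and Il2rb. Tcf7, with a log2 fold change of -1.96 (standard error 0.64), had an edgeR adjusted p of 0.372.

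Cd2, an adhesion receptor that B cells also express, was the most abundant at 104 and 129 CPM in WT, 56.4 and 65.8 in HET and 66.8 to 156 in KO. Rasgrp1, which B cells express too, was the gene higher in HET, at 204 and 237 CPM against 107 to 174 in KO. Without HET replicate 1 or HET replicate 2 the 11 genes became 5, and without KO replicate 4 they became 7. The medians were -0.40 for T lineage signaling and -0.92 for surface and lineage genes, beside -0.07 over all genes.

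With WT and HET as one control group of 4, the opposite values of the 2 genotypes met. At an unadjusted p under 0.05 in edgeR's quasi-likelihood test, Rasgrp1 was higher in controls and Sit1, a transmembrane adaptor, lower, which is 1 of 32 each way beside 4.05% and 2.26% of all 13347 genes tested. None passed the adjusted threshold (0.00749% of all genes did), and none with DESeq2 or limma. Over the 10 members the median log2 fold change was 1.01 for WT, -1.38 for HET and 0.20 for the controls together.

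The coreceptor genes were low, and their cell of origin was not tested. Cd4, the coreceptor of helper cells, which some myeloid cells also express, was at 14.7 and 18.7 CPM in WT, 6.76 and 7.64 in HET and 3.07 to 14.4 in KO. Cd8a, of cytotoxic cells and some dendritic cells, was at 2.81 and 1.76, at 0.988 and 1.67, and at 0.766 to 4.38. The TPM ratio of Cd4 to Cd8a was between 1.07 and 10.1, without an order by genotype. Pdcd1, which encodes PD-1 and is high on T follicular helper cells, was at 11.8 and 17.0 CPM in WT, 1.53 and 2.68 in HET and 4.37 to 7.73 in KO. These groups did not overlap, which held in the same order for 0.118% of all genes. Its unadjusted p from edgeR's quasi-likelihood test was 0.0022 for WT (adjusted p = 0.999) and 0.00501 for HET (adjusted p = 0.350). Of the 7 follicular helper genes tested, 1 (Pdcd1) was higher in WT under the unadjusted threshold, beside 1.19% of all genes tested. For HET, Pdcd1 and Cd40lg were the 2 under it, lower there, as 4.76% of all genes tested were. Over the 7 genes the log2 fold changes were mixed for WT, 4 positive and 3 negative (median 0.07). For HET, 2 were positive and 5 negative (median -0.82). Tox2 had another order than Pdcd1, with means of 41.6 CPM in WT, 55.9 in KO and 76.1 in HET. Cxcr5 and Tox2 are shared with GC B cells, and Cxcr5, at 215 to 299 CPM over the libraries, was not under that threshold in either comparison.

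The γδ constant genes Trdc, Tcrg-C1, Tcrg-C2 and Tcrg-C4 summed to 2.16 and 3.28 CPM in WT, 0.319 and 0.0724 in HET and 0.474 to 3.82 in KO. The natural killer and cytotoxic list summed to 22.1 to 75.5 CPM, most of it Tbx21, which B cells can express. Tbx21 was at 17.4 to 67.9 CPM. Prf1, Klrk1 and Nkg7 were highest in KO replicate 6, at 11.1, 8.98 and 6.37 CPM, and Gzmb in WT replicate 1, at 4.13 CPM. Klrb1c reached 2.28 CPM, Klrd1 0.576 and Eomes 0.539. Ncr1 was at 1.35 CPM in WT replicate 2 and at 0 in the other 9 libraries, and Gzma was at 0 in all but KO replicate 5 (0.202 CPM). Of 7 genes tested, Gzmb was higher in WT at an unadjusted p under 0.05, beside 1.19% of all genes tested. Klrd1 was lower in HET at that p, beside 4.76%. Gzmb was at 0 CPM in WT replicate 2, and Klrd1 at 0 CPM in both HET libraries. None passed the adjusted threshold with edgeR's quasi-likelihood test.

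Signaling genes that B cells share were tested apart. The 16 genes of the shared lymphocyte list had a median log2 fold change of 0.14 for WT and 0.32 for HET. In HET, 7 were higher at an unadjusted p under 0.05, as 5.46% of all genes tested were. Among them were Fyn, a Src kinase like Lck (0.41, standard error 0.11), and Nfatc3 (0.67, 0.19). Ptpn22, a phosphatase acting on Lck, was lower at that p (-1.17, 0.41), as 4.76% of all genes tested were. BCR genes summed to 10280 and 11060 CPM in WT, 10630 and 10540 in HET and 9520 to 11510 in KO. Of 12, 3 (Syk, Btk, Plcg2) were higher in HET at that p, beside the same 5.46%, and 0 reached it for WT. None of these passed the adjusted threshold with edgeR's quasi-likelihood test.

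Several myeloid, erythroid and plasma cell markers also had low values in HET. The 10 myeloid genes summed to 624 and 494 CPM in WT, 94.7 and 102 in HET and 85.0 to 808 in KO, and 6 (Cd68, Itgam, C1qa, C1qb, C1qc, Cd14) were lower in HET at an unadjusted p under 0.05, as 4.76% of all genes tested were. The 6 erythroid genes summed to 44.8 and 57.1 CPM in WT, 38.8 and 35.5 in HET and 56.1 to 96.5 in KO, with 3 globin genes lower in HET at the same p, and of 6 plasma cell genes Sdc1 was lower at that p. None of these passed the adjusted threshold with edgeR's quasi-likelihood test. The medians of log2 fold change in HET were -1.70 for myeloid, -3.20 for erythroid and -0.82 for plasma cell genes. In WT they were 0.47, -0.97 and -0.09, with 9 of 10 myeloid, 0 of 6 erythroid and 1 of 6 plasma cell genes above 0. The myeloid medians thus had the same signs as those of the members. Hbb-bt, the largest part of the erythroid sum, had means of 34.1 CPM in HET and 34.7 in WT. Among the KO libraries, myeloid sums were lowest in replicates 2 and 1, at 85.0 and 112 CPM, where the 9 members summed to 75.7 and 66.3 CPM, and highest in KO replicate 4, where they summed to 87.1. The part of cells outside the B lineage in the values of the members was not tested.

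**Figure D5:**
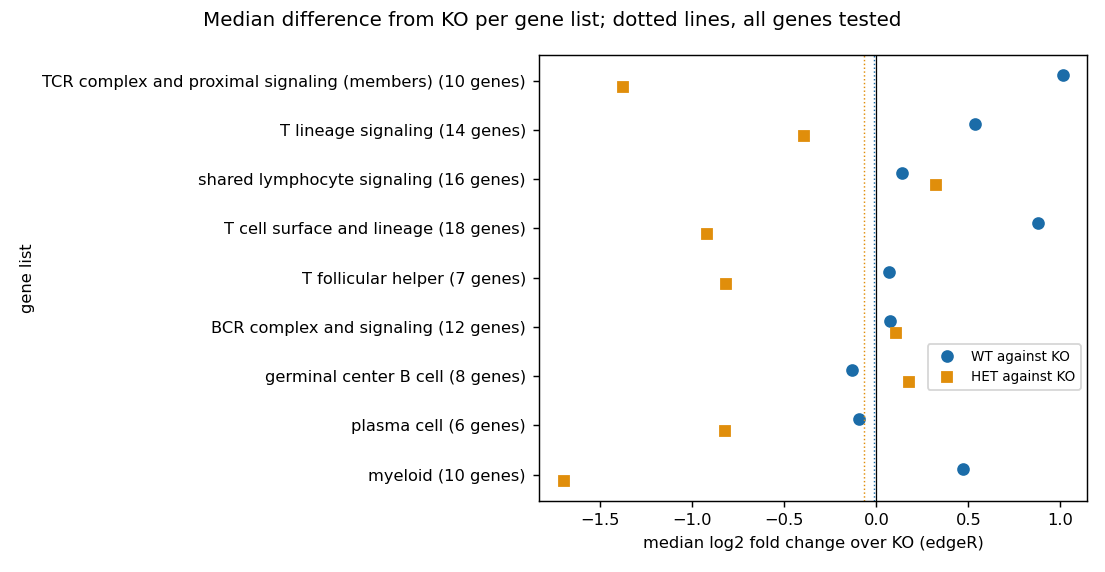
Median log2 fold change over KO for 9 gene lists, circles for WT and squares for HET, with dotted lines at the medians over all genes tested (-0.01 and -0.07). The members lie at 1.01 for WT and -1.38 for HET, and the BCR list lies near 0 in both.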

How the data were processed

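RNA was extracted with Nucleospin XS kits, and SMART-Seq v4 cDNA libraries were sequenced as paired-end reads on an Illumina instrument. The authors quantified transcripts with Salmon (0.9.1 in the submitters' processing notes, which also list DESeq2 2.11.40.6) against Gencode vM17. They deposited estimated counts, not normalized, and TPM, which is per effective transcript length, for 64019 coding transcripts. These kits do not mark strand, so antisense reads cannot be told apart.

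Estimated counts were summed per gene by symbol and identifier and rounded to whole numbers. Genes were filtered with filterByExpr, normalized with TMM and tested with edgeR 4.0.16 (quasi-likelihood, Benjamini-Hochberg, adjusted threshold 0.1, and an unadjusted 0.05 for list counts) in R 4.3.3. WT against KO and WT plus HET against KO used their own libraries. HET against KO used all 10 with a term per genotype. Fold changes are over KO. Alternatives were DESeq2 1.42.0, limma 3.58.1 on log2(TPM + 1) and log2(TPM + 0.1), DESeq2's size factors, length-scaled counts, no count filter, a filter of 10 counts in all libraries, the replicate number as a block, other libraries in the fit, and each library left out. The edgeR fit was tested on simulated data. With 2 libraries in WT and HET, the spread rests mainly on KO. PCR duplicates were not distinguished, and a count of 0 allows up to 3 counts.

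The members and gene lists were chosen with earlier results of these data known. Genes named are the members, and per list those with the highest mean TPM (up to 4), with an unadjusted p under 0.05 or at 0 in every library, Zbtb38, and the 5 genes most like the members. Others (Cd4, Cd8a and the natural killer genes among them) were named after their values were seen. Some genes of the lists are counted but not reported here by name. Positions and coding sequences are from Gencode vM21 (GRCm38) and promoters from RefSeq. Figures were drawn with matplotlib 3.10.9 in Python 3.11.15.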

Additional observations from a re-analysis of the deposited data

Results flagged for a closer look

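Within the 6 ZBTB38 KO libraries, Cd3d in KO replicate 6 (19.0 CPM) lay far above the other 5, which ran from 4.18 to 9.59 CPM. The summed myeloid genes in KO replicate 4 (808 CPM) lay far above the other 5, which reached 304 CPM. In both cases the gap to the nearest library exceeded Dixon's 95% critical value for 6 samples. Of 22 groups checked 2 were this far out, and about 1.1 would be by chance, since the rule takes about 1 in 20 groups. The cause was not tested.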

How the results depend on the processing

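The counts of the 32 T cell genes outside the members at an unadjusted p under 0.05 (6 for WT, 11 for HET and 2 for WT plus HET against KO) moved by more than 1.5 times under few settings that kept every library. With limma on log2(TPM + 1) they were 11, 7 and 1, and with log2(TPM + 0.1) the last was also 1. Leaving out 1 library at a time gave 1 to 9, 5 to 12 and 1 to 3. The last was 1 without WT replicate 1, HET replicate 1 or KO replicate 1. Where this left 1 WT or HET library, that library was assumed to vary like the others. The cause was not tested. For the members the alternatives were DESeq2's size factors, log2(TPM + 1), length-scaled counts and each library left out. Log2 fold changes of the 9 other than Lck kept their sign in all of these. That of Lck changed sign. With each library left out it ran from -0.033 (KO replicate 6) to 0.122 (KO replicate 1) for HET and from -0.065 to 0.105 (the same libraries) for WT, and with DESeq2's size factors it was -0.005 for WT. Zap70 in HET ran from -1.16 with log2(TPM + 1) to -6.64 without HET replicate 2, and Cd3e in HET was -0.59 without HET replicate 1 and -1.99 without HET replicate 2.

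Libraries of different genotypes share replicate numbers, and the deviations of same-numbered libraries from their group means correlated at -0.01 to 0.13. With 2 libraries in WT and in HET, the deviations within each of these groups mirror each other. These values therefore cannot decide whether the numbers pair libraries. With the replicate number as a block the counts were 11 (WT), 8 (HET) and 4 (WT plus HET). Over all genes, 1090 of 14203, 1396 of 14354 and 1104 of 13347 then reached an unadjusted p under 0.05. Without the block these were 311, 1467 and 841.

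Zap70 and Cd247 rested on 1 estimated count in 1 library each, so ratios with them are imprecise at this depth.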
